A study of Mus musculus with 4 samples.

Results

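The expression of 33 genes that bring pyruvate into the mitochondrion and carry its carbon through the tricarboxylic acid (TCA) cycle was compared in the optic nerves of Dor WT and Dor cKO mice. The genes were taken from a named list of pyruvate dehydrogenase, TCA cycle, malic enzyme, anaplerotic and mitochondrial carrier genes, in which the isocitrate and alpha-ketoglutarate dehydrogenases are not included. They are 33 of the 55401 genes in each deposited table, and all 33 passed the filter on low counts that left 16751 genes to test. RNA sequencing gave 4 libraries, 2 of genotype Dor WT and 2 of genotype Dor cKO, a conditional knockout. By its title, the study asks how Dor acts on alpha-ketoglutarate metabolism of mature oligodendrocytes and on myelin formation. The driver of the deletion, the cells it reaches, strain, sex, age and the number of animals behind a library are not stated in the labels. An age-like tag stands in the table names of the Dor WT libraries alone, so whether age differed between the groups cannot be told. Nothing says that the libraries of a group came from separate animals, so the p-values measure the spread between these libraries, which may be technical.

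Pyruvate enters the mitochondrial matrix through the mitochondrial pyruvate carrier and is turned into acetyl-CoA by the pyruvate dehydrogenase (PDH) complex, which kinases switch off by phosphorylation and phosphatases switch on again. Citrate synthase joins acetyl-CoA to oxaloacetate, and the cycle passes through alpha-ketoglutarate and succinyl-CoA to succinate, fumarate and malate. Pyruvate carboxylase refills the cycle, a reaction that in the brain is known mainly from astrocytes, while malic enzymes turn malate back into pyruvate. Oligodendrocytes draw on mitochondrial citrate and on NADPH to make the lipids of myelin.

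The libraries held between 17263820 and 21595825 counts, and a gene of this list had between 52 and 5970 counts in a library. Trp53inp2, the gene also known as Dor, stood at 138 and 134 counts scaled to a common library size (CPM) in Dor WT against 105 and 107 CPM in Dor cKO, with a log2 fold change of -0.36 (SE 0.04, edgeR adjusted p = 2.73e-08). The labels do not say which part of the gene is deleted, so what remains of its reads does not measure the deletion. Markers of the labelled tissue were present, with 9553 and 9511 CPM for the astrocyte filament gene Gfap and 15674 and 15621 CPM for the myelin gene Mbp in Dor WT. Cell type markers moved between the groups, counted here at an edgeR adjusted p under 0.05, which 27.7% of all tested genes passed. The summed level of 14 myelin and mature oligodendrocyte genes went from 31573 and 31444 CPM to 18612 and 18548 CPM. Of the 14, 12 fell and 2 rose, Apod (log2 fold change 0.64) and Trf (0.12). That of 9 astrocyte genes went from 14047 and 14031 to 15434 and 15462 CPM, with 8 higher and 1 lower. Summed CPM of 7 fibroblast and meningeal genes, all of which rose, went from 10159 and 10169 to 13049 and 13041. That of 9 pituitary and secretory genes, of which 7 fell among 8 tested, went from 175 and 174 to 45.8 and 47.7, and Cga, a pituitary hormone subunit gene, was at 0 in both Dor cKO libraries. Of 6 oligodendrocyte precursor genes 5 fell, and the sum of the 6 was 1884 and 1838 CPM in Dor WT against 1154 and 1173 CPM in Dor cKO. The falls were uneven. Gpr17 went from 572 and 566 to 246 and 255 CPM, and Tnr from 575 and 564 to 311 and 322.5 CPM. Pdgfra fell by a log2 fold change of only 0.07 (edgeR adjusted p = 0.044), and Cspg4, at -0.11, did not pass. Microglia genes rose for 4 and fell for 1 of 8, endothelial genes rose for 4 of 6, and neuron genes rose for 1 and fell for 3 of 7. In whole tissue, fewer cells of a type and less RNA per cell cannot be told apart. The part of these shifts in the values below was not tested.

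Most of the 33 genes differed little between the groups, and those past the threshold moved both ways. Pyruvate carboxylase (Pcx) had the largest rise, from 110.3 ± 0.923 CPM in Dor WT to 146 ± 4.53 CPM in Dor cKO (SD, n = 2 libraries per group). The cytosolic malic enzyme gene Me1 had the largest fall among the genes past the threshold, from 98.9 ± 1.82 to 84.9 ± 0.959 CPM. At an edgeR adjusted p under 0.05, 9 of the 33 genes rose, 2 fell and 22 did not pass. That is 33.3% of the list, beside 27.7% of all tested genes, of which 14.3% were higher and 13.4% lower. The median log2 fold change was 0.05 over the list and -0.00 over all tested genes, and the median size of a change without its sign was 0.09 and 0.18. None of the 33 changed by 1.5-fold or more (0 genes), and 29 had a fitted change under 1.2-fold. The Dor WT and Dor cKO values did not overlap in CPM for 22 of the 33 genes, or 66.7%, which lies near the 60.8% of all tested genes for which this was so. Out of the 33, 14 were higher and 8 lower in Dor cKO without overlap, beside 30.2% and 30.5% of all tested genes.

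**Figure D1:**
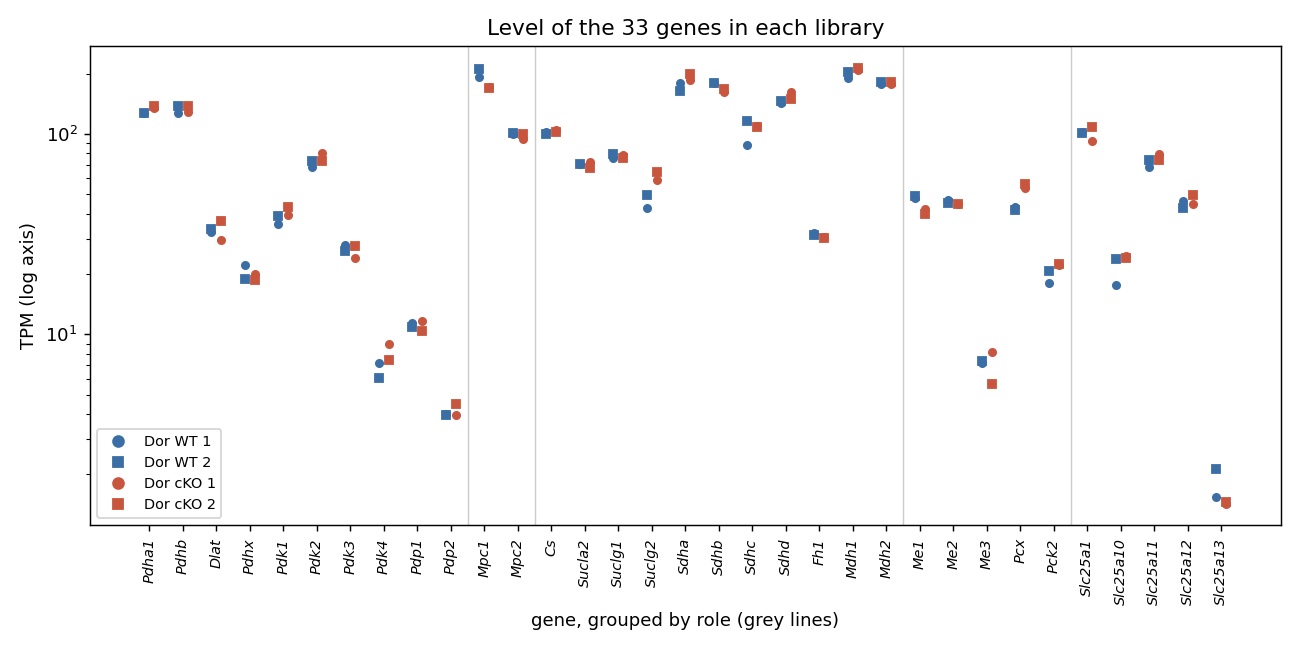
Level of each of the 33 genes in transcripts scaled for length and library size (TPM) on a log axis in the 2 Dor WT libraries (blue) and the 2 Dor cKO libraries (red), with genes grouped by role between the grey lines. Mean levels run from 1.64 TPM for Slc25a13 to 204 TPM for Mdh1, and for most genes the 4 libraries lie close together.

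**Figure D2:**
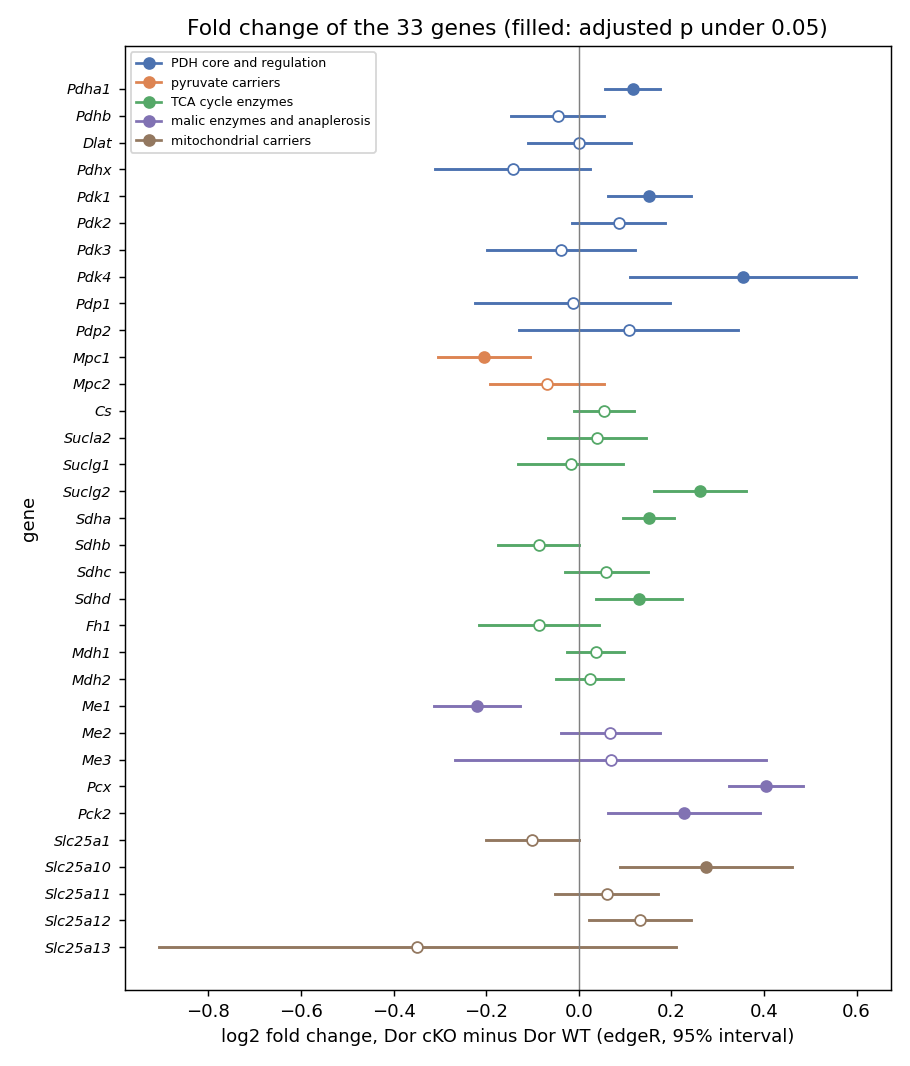
Log2 fold change of the 33 genes, Dor cKO minus Dor WT, with the 95% interval of the edgeR fit as a line and a filled circle for an adjusted p under 0.05. Filled circles stand on both sides of 0, and Slc25a13, the gene with the lowest counts, has the widest interval.

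The PDH complex was examined through its E1 subunits Pdha1 and Pdhb, the E2 subunit Dlat and the E3-binding protein Pdhx. Pdha1 (GRCm38 chromosome X, 160122209 to 160138413), the alpha subunit that the kinases phosphorylate, had 225 and 223 CPM in Dor WT against 239 and 247 CPM in Dor cKO. Both Dor cKO libraries were above both Dor WT libraries, and Pdha1 rose by a log2 fold change of 0.12 (SE 0.03, edgeR adjusted p = 0.00283). Without Dor cKO replicate 2 the log2 fold change of Pdha1 was 0.09 (edgeR adjusted p = 0.0958). Its partner Pdhb, at 85.5 and 87.3 CPM in Dor WT against 81.1 and 86.5 CPM in Dor cKO, overlapped between the groups, with a log2 fold change of -0.05 (95% interval -0.15 to 0.05). Dlat had a log2 fold change of 0.00 (95% interval -0.11 to 0.11) and Pdhx of -0.14 (-0.31 to 0.02). Per length, the transcripts of the E1 subunits were at like levels, with means over the 4 libraries of 132 TPM for Pdha1 and 133 TPM for Pdhb, above the 33.1 TPM of Dlat and the 19.98 TPM of Pdhx.

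Among the 4 PDH kinase genes, whose products inactivate the complex, Pdk1 and Pdk4 rose. Pdk1 had 94.5 and 97.3 CPM in Dor WT against 105 and 109 CPM in Dor cKO, a rise of 0.15 (SE 0.04, edgeR adjusted p = 0.00855) with no overlap. Pdk4, the form known to be induced by fasting and fatty acids, had 13.4 and 12.98 CPM in Dor WT against 18.1 and 15.5 CPM in Dor cKO. The Dor WT libraries lay close together and the Dor cKO libraries apart from each other but above both, a rise of 0.35 or 1.28-fold (SE 0.12, adjusted p = 0.0244). Both calls were lost with DESeq2 (adjusted p = 0.0785 for Pdk1 and 0.136 for Pdk4). Without Dor cKO replicate 2, Pdk1 was at 0.13 (adjusted p = 0.121). Pdk4 was at 0.24 (adjusted p = 0.311) without Dor cKO replicate 1 and at 0.33 (adjusted p = 0.0867) without Dor WT replicate 2.

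Pdk2, the most abundant of the kinase transcripts per length at 73.7 TPM, had 91.9 and 95.5 CPM in Dor WT against 105 and 94.55 CPM in Dor cKO. Its groups overlapped, and its log2 fold change of 0.09 (95% interval -0.01 to 0.19) did not pass (edgeR adjusted p = 0.211). It rested on the first Dor cKO library, with 0.01 (adjusted p = 0.928) when that one was left out and 0.16 (adjusted p = 0.0476) when the second was. Pdk3 had -0.04 (-0.20 to 0.12). Summed over the 4 kinases, the level went from 139 and 144 TPM in Dor WT to 152 and 151 TPM in Dor cKO. Pdk4 made up 5.17% and 4.20% of that sum in Dor WT against 5.88% and 4.90% in Dor cKO, which overlap. From CPM the Pdk4 share was 5.70% and 5.43% in Dor WT against 7.02% and 6.12% in Dor cKO, which do not overlap (exact permutation p = 0.333, the smallest possible). The phosphatase genes Pdp1 and Pdp2, whose products reactivate the complex, were lower in level, with sums of 15.5 and 14.8 TPM in Dor WT against 15.6 and 14.9 TPM in Dor cKO. Their log2 fold changes were -0.01 (95% interval -0.22 to 0.20) for Pdp1 and 0.11 (-0.13 to 0.34) for Pdp2.

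The subunits of the mitochondrial pyruvate carrier, Mpc1 and Mpc2, work as a pair. Mpc1 (chromosome 17, 8282904 to 8297661) had 91.4 and 97.7 CPM in Dor WT against 83.8 and 80.5 CPM in Dor cKO. All Dor cKO values were below all Dor WT values, and Mpc1 fell by 0.21 (SE 0.05, edgeR adjusted p = 0.0016), 1.15-fold lower. Mpc2 had 54.9 and 54.0 CPM in Dor WT against 50.8 and 53.0 CPM in Dor cKO, with a log2 fold change of -0.07 (95% interval -0.19 to 0.06) that did not pass. Mpc1 made up 65.7% and 67.4% of the summed TPM of the pair in Dor WT against 64.6% and 63.0% in Dor cKO. With 2 libraries per group, an exact permutation test of such a share cannot give a two-sided p below 0.333, which it gave here.

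Of the 11 TCA cycle enzyme genes, 3 rose and 8 did not pass, where 27.7% of all tested genes were called in either direction. Sdha (chromosome 13, 74322254 to 74350280), the flavoprotein of succinate dehydrogenase, had 256 and 254 CPM in Dor WT against 284 and 282 CPM in Dor cKO. The libraries of a group lay close together and the groups were apart, a rise of 0.15 (SE 0.03, edgeR adjusted p = 5.07e-05). Sdhd, a membrane anchor of the same complex, had 95.7 and 98.1 CPM in Dor WT against 110.2 and 102 CPM in Dor cKO, a rise of 0.13 (SE 0.05, adjusted p = 0.032). DESeq2 did not call Sdhd (adjusted p = 0.174), nor did edgeR after total-count scaling (0.11, adjusted p = 0.0732). On leaving out the first library of a group, its edgeR adjusted p was 0.115 for Dor WT (log2 fold change 0.11) and 0.433 for Dor cKO (0.07). Sdhb, the iron-sulfur subunit, had 109 and 108 CPM in Dor WT against 101 and 104 CPM in Dor cKO, with a log2 fold change of -0.09 that did not pass (adjusted p = 0.135). Sdhb was past the threshold once the trend of fold change on transcript length and GC content was removed (-0.15, adjusted p = 0.00731). Sdhc, the other anchor, was at 0.06 (95% interval -0.03 to 0.15).

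Succinyl-CoA ligase pairs the alpha subunit Suclg1 with a beta subunit that sets the nucleotide it makes, Sucla2 for ATP or Suclg2 for GTP. Suclg2 (chromosome 6, 95473009 to 95718800) had 73.8 and 76.6 CPM in Dor WT against 90.6 and 89.8 CPM in Dor cKO. The groups were well apart, and Suclg2 rose by 0.26 (SE 0.05, edgeR adjusted p = 9.61e-05). Sucla2 had 72.3 and 77.7 CPM in Dor WT against 78.3 and 76.2 CPM in Dor cKO, which overlap, with a log2 fold change of 0.04 (95% interval -0.07 to 0.15). Suclg1 was at -0.02 (-0.13 to 0.10). As a share of the summed TPM of both beta subunits, Suclg2 held 37.7% and 41.3% in Dor WT against 45.1% and 48.8% in Dor cKO, a mean difference of 7.44 percentage points (exact permutation p = 0.333, the smallest possible). From CPM, which is not scaled for length, the difference was 3.81 points. The abundance-weighted length of Suclg2 transcripts was 2763 and 2491 bases in Dor WT against 2452 and 2240 bases in Dor cKO, and its TPM moved more than its CPM.

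The other cycle enzymes stayed within narrow bounds. Citrate synthase (Cs), the entry step, had 188 and 183 CPM in Dor WT against 194 and 191 CPM in Dor cKO, with a log2 fold change of 0.05 (95% interval -0.01 to 0.12). Mdh1, the cytosolic malate dehydrogenase of the malate-aspartate shuttle, had 211 and 206 CPM in Dor WT against 214 in both Dor cKO libraries, at 0.04 (-0.02 to 0.10). The mitochondrial form Mdh2 had 144 and 147 CPM in Dor WT against 146 and 149.7 CPM in Dor cKO, at 0.02 (-0.05 to 0.10). Fumarate hydratase (Fh1) was at -0.09 (-0.22 to 0.04), with 51.3 and 49.8 CPM in Dor WT against 49.2 and 46.0 CPM in Dor cKO. Over the whole list, 20 of the 22 genes that did not pass had a 95% interval that stayed within 1.3-fold in either direction, a limit chosen after the values were seen, and for Me3 and Slc25a13 it reached further.

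**Figure D3:**
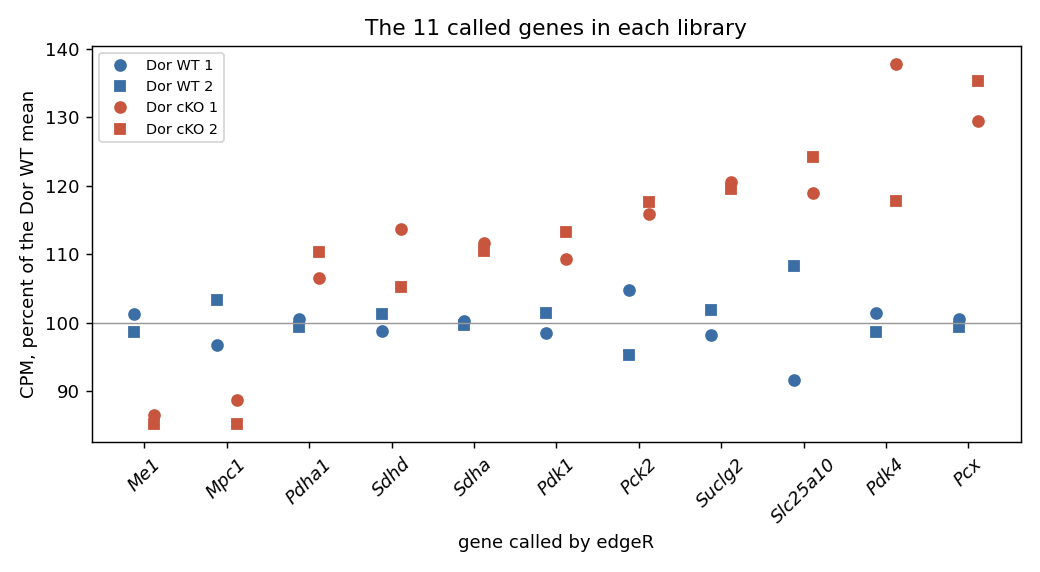
CPM of the 11 genes past the threshold in each library, as a percentage of the gene's Dor WT mean (grey line), ordered by fold change. In every one of the 11 genes the 2 Dor cKO libraries (red) lie on the same side of both Dor WT libraries (blue), and Sdhd, Pdk4 and Slc25a10 show the widest gaps between libraries of a group relative to the gap between groups.

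Among the 5 genes that refill or drain the cycle, 2 rose, 1 fell and 2 did not pass, beside 27.7% of all tested genes called. Pcx (ENSMUSG00000024892.17, chromosome 19, 4510472 to 4621752), which makes oxaloacetate from pyruvate, had 111 and 109.6 CPM in Dor WT against 143 and 149 CPM in Dor cKO. The groups were far apart compared with the gaps within them, and Pcx rose by 0.40 or 1.32-fold (SE 0.04, edgeR adjusted p = 1.6e-09). Summed astrocyte markers moved the same way, by the values given above. Most of that sum is Gfap, which rose by 0.10. The 9 astrocyte markers taken singly ran from -0.35 for Aqp4, the 1 that fell, to 0.47 for Aldoc. The part of the astrocyte markers in the Pcx value was not tested. Pck2, the mitochondrial form of phosphoenolpyruvate carboxykinase, had 29.1 and 26.4 CPM in Dor WT against 32.15 and 32.7 CPM in Dor cKO, a rise of 0.23 (SE 0.08, adjusted p = 0.0333). DESeq2 did not call Pck2 (adjusted p = 0.189), nor did edgeR after total-count scaling (0.21, adjusted p = 0.0539). Its edgeR adjusted p was 0.253 (log2 fold change 0.16) on leaving out Dor WT replicate 2. On leaving out a Dor cKO library it was 0.106 (0.24) for replicate 1 and 0.155 (0.22) for replicate 2.

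Malic enzymes make pyruvate and NADPH or NADH from malate. Me1 (chromosome 9, 86581371 to 86695953), the cytosolic NADPH-producing form, had 100.2 and 97.7 CPM in Dor WT against 85.6 and 84.2 CPM in Dor cKO. The groups did not overlap, and Me1 fell by 0.22, 1.16-fold lower (SE 0.05, edgeR adjusted p = 3.91e-04). Summed myelin and mature oligodendrocyte markers also went down, and their part in the Me1 value was not tested. Me2, a mitochondrial form, had 69.8 and 67.6 CPM in Dor WT against 71.3 and 72.6 CPM in Dor cKO, with a log2 fold change of 0.07 (95% interval -0.04 to 0.18). Me3, the other mitochondrial form, was low, at 7.77 and 8.61 CPM in Dor WT against 9.96 and 7.27 CPM in Dor cKO, and its interval of -0.27 to 0.41 bounds it less well. Of the summed TPM of the 3 forms, Me1 held 47.0% and 48.3% in Dor WT against 44.6% and 44.1% in Dor cKO (exact permutation p = 0.333).

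**Figure D4:**
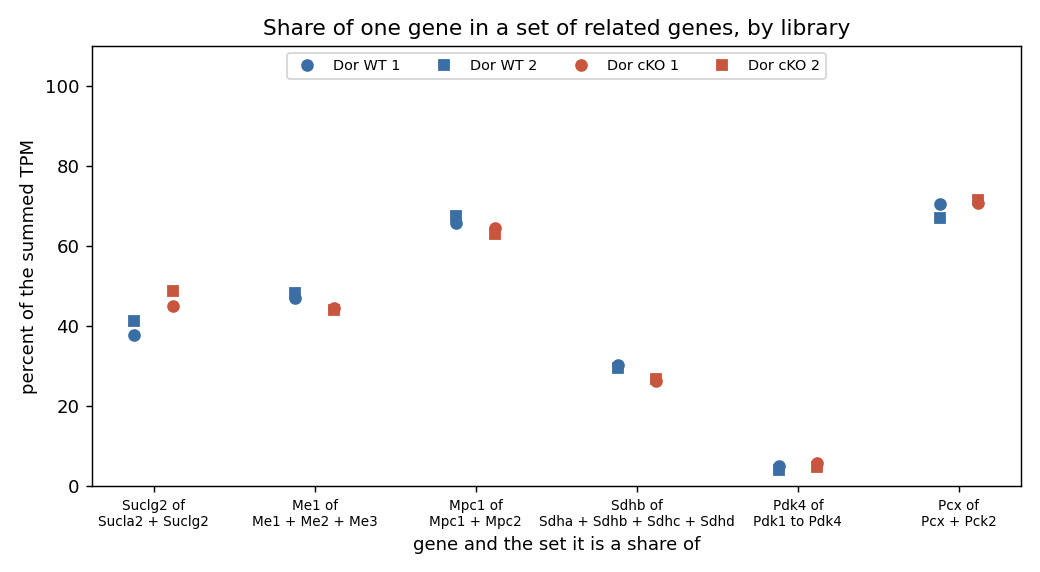
Share of one gene in the summed TPM of a set of related genes, in percent, in each library. The Suclg2 share of the beta subunits of succinyl-CoA ligase shows the largest shift, from 37.7% and 41.3% in Dor WT to 45.1% and 48.8% in Dor cKO, and the Pdk4 share of the PDH kinases overlaps between the groups on this TPM scale.

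Of 5 mitochondrial carrier genes, 1 rose and 4 did not pass, beside 27.7% of all tested genes called. Slc25a10, the dicarboxylate carrier that exchanges malate or succinate for phosphate, had 21.5 and 25.4 CPM in Dor WT against 27.9 and 29.1 CPM in Dor cKO. The Dor WT libraries were further from each other than those of Dor cKO, and Slc25a10 rose by 0.28 (SE 0.09, edgeR adjusted p = 0.0216). DESeq2 did not call it (adjusted p = 0.131). Its edgeR adjusted p was 0.246 (log2 fold change 0.17) on leaving out Dor WT replicate 1. On leaving out a Dor cKO library it was 0.0514 (0.31) for replicate 1 and 0.145 (0.25) for replicate 2. Slc25a1, which exports citrate for lipid synthesis, had 90.3 and 85.4 CPM in Dor WT against 79.97 and 83.7 CPM in Dor cKO, with a log2 fold change of -0.10 (adjusted p = 0.141). After removal of that same length and GC trend it passed (-0.15, edgeR adjusted p = 0.0202). It was nearer to 0 on leaving out the first library of Dor WT (-0.06, adjusted p = 0.502) or of Dor cKO (-0.07, adjusted p = 0.535), and under limma (-0.03, adjusted p = 0.876).

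The aspartate-glutamate carriers belong to the malate-aspartate shuttle. Slc25a12, the form known from brain, had 81.6 and 76.15 CPM in Dor WT against 81.8 and 90.7 CPM in Dor cKO, at 0.13 (SE 0.05, edgeR adjusted p = 0.0699). It passed on leaving out the first library of either group, at 0.18 for Dor WT (adjusted p = 0.0235) and 0.20 for Dor cKO (adjusted p = 0.0167). On leaving out the second library it was at 0.08 for Dor WT (adjusted p = 0.389) and 0.06 for Dor cKO (adjusted p = 0.643), so its value turned on which library was kept. With every gene kept, however low, its edgeR adjusted p was 0.031. Slc25a13, known mainly from liver, had 2.99 and 3.45 CPM in Dor WT against 2.52 and 2.55 CPM in Dor cKO, and its interval of -0.91 to 0.21 holds changes of either sign. Slc25a11, the carrier of alpha-ketoglutarate and malate, had 65.4 and 69.2 CPM in Dor WT against 71.4 and 69.1 CPM in Dor cKO, at 0.06 (95% interval -0.05 to 0.17). Its exons share 189 bases with the opposite-strand gene Rnf167 at 45.7 CPM, and no source used here says whether counting used the strand. The same limit holds for other genes of the list. Pdha1 shares 603 bases with Map3k15 (2.99 CPM), Mpc1 480 with 4930506C21Rik (0.697 CPM) and Mdh1 52 with Wdpcp (10.8 CPM). Me3 shares 569 with A230065N10Rik (0.821 CPM) and Slc25a10 228 with Gm11788 (0.136 CPM). Pck2 shares 53 with Gm10876 (0 CPM) and Me1 30 with A330041J22Rik (0.62 CPM).

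The calls for Pcx, Suclg2, Sdha, Me1 and Mpc1 were the 5 that held when any library was left out, with DESeq2, and under every scaling and filter tried. With limma on log2(TPM + 1), where 8.29% of all genes were called, Pcx was the only one of the 33 past the threshold, at an adjusted p under 0.05. When the fitted biological coefficient of variation, 0.0348, was replaced by 0.1, none of the 33 was called (0 genes), against 9.52% of all genes, and Pcx was at an adjusted p of 0.059. At an unadjusted p under 0.05, 2 of the 33 passed in the edgeR fit with 0.1, and 13 in the reported one. The share of all genes at that unadjusted threshold is not given here, so neither count can be read against it. Of all genes, the share called was 17.6% with DESeq2, which called 6 of the 33. It was 17.8% with no low-count filter, 26.5% with the length and GC trend removed, 28% with total-count scaling, 30.7% with a minimum of 1 CPM in 2 libraries and 29.7% with the replicate number in the model. It was 23.9% and 24.5% on leaving out Dor WT replicate 1 or 2, and 20% on leaving out either Dor cKO library, so that gains and losses of single calls above come on different totals.

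**Figure D5:**
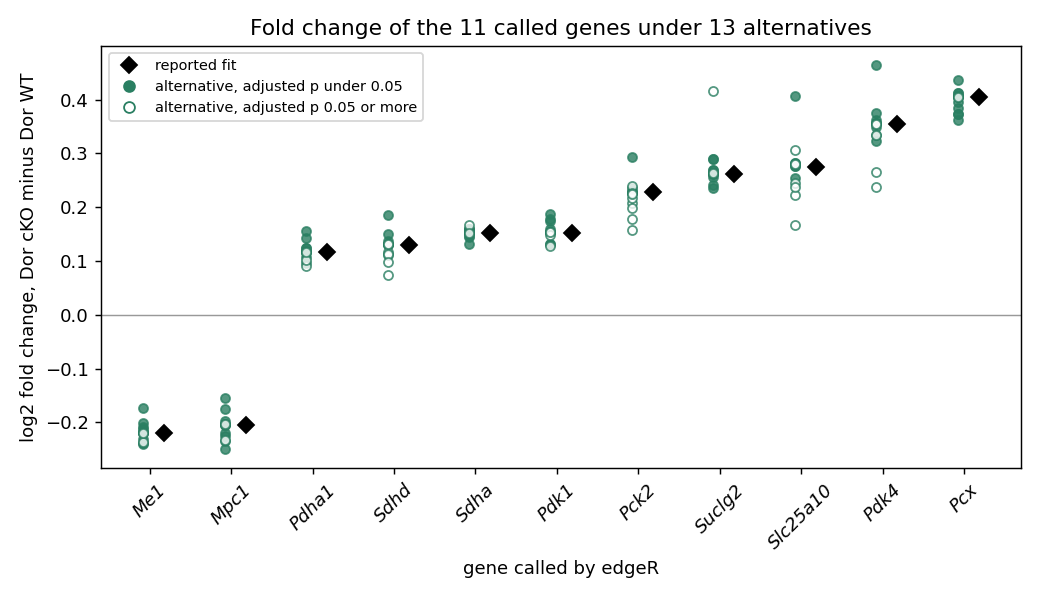
Log2 fold change of the 11 genes past the threshold in the reported edgeR fit (diamonds) and under 13 alternative settings (circles, open where the adjusted p was 0.05 or more). No circle crosses 0, and Pcx has a single open circle, whereas Sdhd, Pck2 and Slc25a10 have several.

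Promoter windows of those 5 genes are shown because they are the members with the steadiest calls, 3 higher and 2 lower. Each runs from 250 bases before to 50 after the start of a RefSeq transcript (GRCm38.p6), the start nearest to the annotated gene start where there are more. RefSeq windows were matched for 30 of the 33 genes, 35 windows in all, and Me2, Pdp1 and Sdhc are named only. Capitals mark matches on either strand to the NRF1 motif (written out in capitals in the Sdha line), CCGGAAG (an ETS motif), GGGCGG (the GC box), TCAAGGTCA (the ERR motif) or TGACGTCA (the cAMP response element), with overlapping matches joined. The Mpc1 window belongs to a start 883 bases from its annotated gene start, and the others lie 0 to 46 bases away.
Pcx (chr19:4510222-4510521, plus strand): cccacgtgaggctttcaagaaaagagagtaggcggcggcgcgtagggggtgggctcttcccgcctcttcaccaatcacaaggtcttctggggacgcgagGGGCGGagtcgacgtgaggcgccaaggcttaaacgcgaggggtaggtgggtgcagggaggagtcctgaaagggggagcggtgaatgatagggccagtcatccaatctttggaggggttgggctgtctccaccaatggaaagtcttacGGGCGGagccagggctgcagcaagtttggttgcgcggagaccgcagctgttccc
Suclg2 (chr6:95718797-95719096, minus strand): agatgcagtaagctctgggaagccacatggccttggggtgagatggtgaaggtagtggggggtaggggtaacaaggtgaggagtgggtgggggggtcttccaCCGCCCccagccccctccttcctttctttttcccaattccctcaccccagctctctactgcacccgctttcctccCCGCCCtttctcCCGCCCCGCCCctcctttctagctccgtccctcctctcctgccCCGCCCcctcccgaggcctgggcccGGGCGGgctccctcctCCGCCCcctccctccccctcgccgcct
Sdha (chr13:74350191-74350490, minus strand): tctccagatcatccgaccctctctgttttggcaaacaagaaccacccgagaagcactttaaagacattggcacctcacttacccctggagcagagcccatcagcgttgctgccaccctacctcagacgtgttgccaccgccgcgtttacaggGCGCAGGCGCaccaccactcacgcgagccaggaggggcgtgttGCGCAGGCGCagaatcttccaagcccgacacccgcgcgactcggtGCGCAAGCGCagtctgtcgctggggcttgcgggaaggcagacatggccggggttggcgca
Me1 (chr9:86695865-86696164, minus strand): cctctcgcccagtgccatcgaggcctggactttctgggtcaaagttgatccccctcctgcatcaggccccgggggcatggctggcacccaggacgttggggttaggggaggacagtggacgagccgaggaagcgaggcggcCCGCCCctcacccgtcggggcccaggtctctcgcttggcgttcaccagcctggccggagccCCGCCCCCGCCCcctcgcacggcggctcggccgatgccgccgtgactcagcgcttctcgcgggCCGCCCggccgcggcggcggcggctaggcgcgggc
Mpc1 (chr17:8283537-8283836, plus strand): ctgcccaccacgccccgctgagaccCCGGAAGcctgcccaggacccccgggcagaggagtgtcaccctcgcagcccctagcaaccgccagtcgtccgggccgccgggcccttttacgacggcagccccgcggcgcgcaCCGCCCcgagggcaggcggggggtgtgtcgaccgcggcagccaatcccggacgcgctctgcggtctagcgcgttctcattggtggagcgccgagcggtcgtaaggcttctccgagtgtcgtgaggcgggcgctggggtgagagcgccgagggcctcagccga
The Sdha window held 3 matches to the NRF1 motif, one known from promoters of respiratory genes, and no GC box. Those of Pcx, Suclg2 and Me1 held 2, 7 and 4 GC boxes and no other motif searched, and that of Mpc1 held 1 GC box and 1 ETS match. Over the 35 windows of the list, 65.7% (23 windows) held a GC box, beside 35.7% of all 32851 windows. Those 32851 windows were not limited to tested genes. The NRF1 motif stood in 8.57% (3 windows) of the list, beside 4.6%. The ETS letters stood in 8.57% (3 windows) beside 8.86%. The ERR letters stood in 2.86% beside 0.423% and the cAMP element in 2.86% beside 1.79%, each in only 1 window of the list. A match is a run of letters and shows no binding.

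Genes next to the list in the pathway were counted from further lists. For these counts too, 27.7% of all tested genes were called in either direction. Of 10 other TCA cycle genes, 4 rose and 1 fell. Ogdh, whose enzyme oxidises alpha-ketoglutarate, rose by 0.19 (SE 0.03), the mitochondrial isocitrate dehydrogenase gene Idh2 rose by 0.33 (SE 0.04), and the cytosolic Idh1 fell by 0.43 (SE 0.03, edgeR adjusted p = 9.02e-12). Of 14 genes for lipoate and iron-sulfur cluster assembly, 2 rose and 12 did not pass, and the scaffold gene Iscu rose by 0.34 (SE 0.06, adjusted p = 9.22e-05). None of the 4 succinate dehydrogenase assembly factor genes passed (0 of 4 with edgeR, DESeq2 or limma, and 0 of 4 at an unadjusted p under 0.05).

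Of 13 genes that supply or use acetyl-CoA, 3 rose and 4 fell. The ATP citrate lyase gene Acly, which turns exported citrate into acetyl-CoA, had 252 and 250 CPM in Dor WT against 231 in both Dor cKO libraries and fell by 0.12 (SE 0.03, edgeR adjusted p = 0.00116). Cpt1a, which admits fatty acids to mitochondria, rose by 0.24 (SE 0.04) and the ketone body gene Bdh1 fell by 0.16 (SE 0.04). Of 12 tested genes among 14 partners in lactate, pyruvate and aspartate metabolism, 3 rose and 1 fell. The lactate transporter gene Slc16a1 went from 303 and 312 CPM to 376 and 383 CPM and rose by 0.30 (SE 0.02, adjusted p = 7.34e-11). Ldhb, the lactate dehydrogenase subunit of oxidative tissues, rose by 0.29 (SE 0.03) and the pyruvate kinase gene Pkm by 0.08 (SE 0.02). Of 18 tested regulators of the PDH kinases and of mitochondrial genes, 4 rose and 3 fell. Among them the forkhead factor genes Foxo1 and Foxo3 rose by 0.26 (SE 0.05) and 0.19 (SE 0.04), and Hif1a, the hypoxia factor gene, fell by 0.18 (SE 0.04, adjusted p = 0.00153).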

How the data were processed

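Expected counts and TPM per gene are the authors' values, deposited as 1 RSEM table per library, per the file headers. Build GRCm38 and the tools RSEM 1.3.1, STAR 2.7.9a and Trimmomatic 0.36 come from the submitters' processing notes. No source used here gives the annotation release or the strand setting. Of 55401 gene IDs, 55141 matched GENCODE M21, used for symbols and coordinates. The 260 others held 0.00297% of counts.

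Expected counts were rounded and fitted in edgeR 4.0.16 (R 4.3.3) by the robust quasi-likelihood test, Dor cKO minus Dor WT, with TMM scaling. The filter was filterByExpr (minimum count 10, minimum total 15). Benjamini-Hochberg adjustment ran over all 16751 tested genes, with calls at an adjusted p under 0.05. CPM used the TMM-scaled library sizes. A count of 3 corresponds to 0.139 to 0.174 CPM. That floor converts 3 counts by the unscaled library totals and holds no spread between libraries. The intervals cover counting error and the spread of these libraries. Shares were compared by exact permutation tests over libraries. DESeq2 1.42.0, limma 3.58.1 (pseudocount 1) and other alternatives are in the closing section. The code was tested on simulated data. TPM compares genes per length. RSEM shares ambiguous reads between genes: the posterior SD of the count was 0 in every library for 25 of the 33 genes and above 1% of the count for 1 of them, Me3.

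The genes and lists were chosen with earlier results of these data known. Full values are given for genes past the threshold and for the 2 most abundant of each role. Named genes of other lists are the called ones with the highest mean CPM, up to 3 a list.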

Additional observations from a re-analysis of the deposited data

How the results depend on the processing

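Over 13 alternatives, 361 of 429 values for the 33 genes kept their direction and side of the threshold, 43 lost the call, 7 gained it and 18 changed sign. No gene past the threshold changed sign (0 of 11). With a fixed coefficient of variation of 0.1 between libraries, 703 genes were higher and 891 lower, with 0 and 0 of the 33. DESeq2 gave 1549 and 1392, with 4 of the 33 higher. Limma on log2(TPM + 1) gave 666 and 722, with 1 of the 33 higher and 0 lower. With the length and GC trend removed, 4 of the 33 were lower, and the rises of Sdhd, Pck2 and Slc25a10 were lost. Leaving out 1 library gave 1782 to 2184 genes higher and 1670 to 2073 lower, with 6 to 8 of the 33 higher and 2 lower. Sign changes, all in genes not past the threshold, were Pdk3 0.0557, Pdp1 0.0612 and Mdh2 -0.0337 with the trend removed. Under limma they were Pdhb 0.000282, Sucla2 -0.0142, Mdh2 -2.11e-05, Me2 -0.0426 and Me3 -0.0836, and under total count scaling Dlat -0.0188. Over the fits that leave out 1 library, values of both signs came from Dlat (-0.0601 to 0.0615), Pdp1 (-0.0638 to 0.0362), Sucla2 (-0.0092 to 0.0953), Pdhb (-0.0918 to 0.000807), Pdk3 (-0.1260 to 0.0470), Me3 (-0.1741 to 0.2783) and Suclg1 (-0.0601 to 0.0251). The cause was not tested. Shares from CPM moved to 3.81 points for Suclg2, -4.96 for Me1 and 0.194 for Mdh1.

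Deviations of same-numbered libraries from their group means had a correlation of -0.0177 over genes. With 2 libraries per group both numbers give this same value, so it cannot decide whether the numbers are pairs. The labels state no pairing, and the reported fit uses none. With the replicate number as a block, 2562 genes were higher and 2409 lower, and among the 33 only Slc25a12 changed its call (0.13, edgeR adjusted p = 0.0353). Counts per library were 52 to 75 for Slc25a13 and 135 to 209 for Me3, and their SEs were 0.27 and 0.16.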
